A study of Mus musculus with 2 samples.

Results

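This report describes open chromatin at 10 genes of glucose uptake and glycolysis in mouse T cells: Slc2a1, Slc2a3, Hk1, Hk2, Pfkp, Aldoa, Pgk1, Pkm, Ldha and Slc16a3. They were chosen for their function, as 10 of 21853 protein-coding genes, with earlier results of these data known. Every deposited peak in their gene bodies or within 20 kb on either side was taken. That gave 78 of 78016 peaks in replicate 1 and 74 of 74653 peaks in replicate 2, which merged to 84 of 84666 regions. The assay was ATAC-seq, in which a transposase cuts DNA that nucleosomes leave open, on primary T cells of mouse strain C57BL/6NJ. There was 1 group of 2 libraries, called biological replicates 1 and 2 in the labels, with separate sample records but 1 donor record, sex not collected and age unknown, so the spread between them may be technical. The labels say only T cells and point to a protocol for differentiating CD4+ T cells, while the peak names also carry Th0, 72hrs and ASTARR.insert, which no label explains, so no T-cell subset or treatment is assigned here. The depth of each library is unknown.

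Glycolysis splits glucose into pyruvate, yielding ATP and building blocks, and lactate made from pyruvate leaves the cell through monocarboxylate transporters. Resting T cells rely mainly on mitochondrial respiration, whereas activated T cells raise glucose uptake and turn much of the pyruvate into lactate. The transcription factors MYC and HIF-1 are known drivers of these genes in activated T cells, MYC through the E-box CACGTG and HIF-1 through a core ACGTG.

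The labelled cell type was checked against marker promoters. All 10 T-cell genes examined (the CD3 chains, Cd2, Cd5, Cd28, Lck, Zap70, Lat and Thy1) had a promoter region in both libraries. Of 5 B-cell genes only Pax5 had one in both libraries, and Cd79b had one in replicate 2. None of 5 myeloid genes had one in both libraries, and Cd14 had one in replicate 1. Of 3 natural killer cell genes, both libraries held promoter regions of Klrb1c and Eomes but not of Ncr1, and Alb, Myh1 and Ttr of other tissues had none.

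Both libraries had a promoter region at all 10 glycolysis genes, while the background was 62.8% of protein-coding genes. A promoter region is one whose summit lies within 1000 bp of an annotated start of a protein-coding transcript. Each region has a deposited signal value, a ratio taken here to be enrichment over the local background, and a −log10 q from the peak caller. Of the 84 merged regions 14 were the genes' own promoters, 6 were promoters of neighbours (Foxj2, Ppp4c, Ypel3, Taf9b, Gramd2 and Ccdc57) and 64 were distal. In what follows P marks an own promoter region and D a distal region, each numbered along the gene in the direction of transcription. All coordinates are on mm10.

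RefSeq's promoter table has entries for 9 of the genes, and 8 of the 9 hold the HIF-1 core ACGTG in at least 1 entry. Genes with several entries have more chances of a match, and no share per gene was computed over all genes. Entries of 7 genes are shown, each covered by the regions found here and each holding ACGTG. Entries of Pfkp, Pkm and Ldha without ACGTG that these regions also cover are not shown, nor are a Pkm entry and a further Aldoa entry with it. The promoter sequences shown were thus chosen in part for this core and do not show how common it is. The entries are from build GRCm38.p6, run 5′ to 3′ on the gene's strand from 250 bases before the annotated start to 50 after, and cover chr4:119108495-119108794 (plus strand) for Slc2a1, chr10:62340372-62340671 (minus) for Hk1, chr6:82774405-82774704 (minus) for Hk2, chr7:126799205-126799504 (minus) for Aldoa, chrX:106186850-106187149 (plus) for Pgk1, chr7:46845554-46845853 (plus) for Ldha and chr11:120948817-120949116 (plus) for Slc16a3. Capitals mark ACGTG and the SP and KLF box GGGCGG on either strand, so that CACGT and CCGCCC are the same letters read on the other strand.
Slc2a1: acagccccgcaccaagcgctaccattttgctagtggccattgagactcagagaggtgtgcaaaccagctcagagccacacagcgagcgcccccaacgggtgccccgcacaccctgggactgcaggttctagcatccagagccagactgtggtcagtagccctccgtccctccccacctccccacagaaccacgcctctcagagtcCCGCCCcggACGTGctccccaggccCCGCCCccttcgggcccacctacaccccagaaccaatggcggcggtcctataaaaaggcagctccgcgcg
Hk1: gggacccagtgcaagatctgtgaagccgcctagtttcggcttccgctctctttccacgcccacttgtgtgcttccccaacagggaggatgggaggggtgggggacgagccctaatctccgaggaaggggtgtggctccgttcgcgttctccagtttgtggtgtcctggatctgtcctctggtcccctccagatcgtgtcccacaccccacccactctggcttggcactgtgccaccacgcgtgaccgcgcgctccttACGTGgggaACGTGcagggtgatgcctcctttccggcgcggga
Hk2: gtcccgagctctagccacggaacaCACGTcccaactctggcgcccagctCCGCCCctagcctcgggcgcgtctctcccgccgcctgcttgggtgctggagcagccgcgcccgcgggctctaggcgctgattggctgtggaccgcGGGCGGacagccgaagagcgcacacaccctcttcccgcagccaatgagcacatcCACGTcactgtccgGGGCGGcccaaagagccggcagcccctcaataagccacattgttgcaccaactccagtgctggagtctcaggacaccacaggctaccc
Aldoa: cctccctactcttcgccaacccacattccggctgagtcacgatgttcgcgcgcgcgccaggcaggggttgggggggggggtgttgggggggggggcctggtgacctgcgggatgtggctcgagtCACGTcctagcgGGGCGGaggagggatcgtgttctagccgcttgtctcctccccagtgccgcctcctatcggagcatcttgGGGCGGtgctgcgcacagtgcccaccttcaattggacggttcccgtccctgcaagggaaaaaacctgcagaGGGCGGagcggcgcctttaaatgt
Pgk1: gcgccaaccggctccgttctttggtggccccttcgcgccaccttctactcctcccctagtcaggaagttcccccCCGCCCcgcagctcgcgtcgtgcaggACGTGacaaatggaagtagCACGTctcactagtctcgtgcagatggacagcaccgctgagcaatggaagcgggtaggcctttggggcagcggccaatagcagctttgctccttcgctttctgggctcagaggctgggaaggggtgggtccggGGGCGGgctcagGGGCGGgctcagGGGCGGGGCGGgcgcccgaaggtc
Ldha: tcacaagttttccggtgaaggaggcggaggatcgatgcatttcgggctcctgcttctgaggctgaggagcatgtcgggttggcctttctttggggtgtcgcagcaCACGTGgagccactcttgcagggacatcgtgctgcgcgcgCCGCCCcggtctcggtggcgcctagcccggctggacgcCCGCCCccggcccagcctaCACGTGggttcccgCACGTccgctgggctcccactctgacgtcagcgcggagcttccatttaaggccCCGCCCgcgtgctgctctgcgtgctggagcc
Slc16a3: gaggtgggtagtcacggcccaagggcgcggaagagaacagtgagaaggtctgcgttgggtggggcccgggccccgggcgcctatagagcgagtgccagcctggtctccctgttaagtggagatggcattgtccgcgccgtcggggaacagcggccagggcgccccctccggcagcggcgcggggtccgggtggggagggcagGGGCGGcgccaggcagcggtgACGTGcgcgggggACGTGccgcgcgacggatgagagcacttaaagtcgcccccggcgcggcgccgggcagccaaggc
In Hk1 both ACGTG cores lie a few bases apart, close to the start, in Slc16a3 both lie on the same strand a few bases apart, and Ldha holds the core at 3 places, of which 2 are full E-boxes. Across the table, 9 of the 14 entries for these genes hold ACGTG, against 19.6% of all 32851 entries, and 7 hold both ACGTG and GGGCGG, against 8.90% of all entries. Entries of a gene can overlap, as do 2 of Aldoa, so these counts are not of separate sequences. A match describes the letters and does not show a bound site. The table has no entry for Slc2a3.

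The glucose transporters come first. Slc2a1 encodes GLUT1, the main glucose importer of activated T cells. Its single promoter region, P1 at chr4:119108290-119109490, had signal values of 8.44 in replicate 1 and 8.95 in replicate 2, with −log10 q of 310.0 and 254. The summit lay on an exon, 78 bp past the RefSeq start of the sequence shown above. The strongest distal region of Slc2a1 was D4, at chr4:119125649-119127826 in an intron, with signal values of 7.62 in replicate 1 and 7.53 in replicate 2 and −log10 q of 159 and 115. Both libraries thus placed the promoter above this intronic region. An upstream region, D1 at chr4:119105604-119106241, had signal values of 6.59 and 5.92 in replicates 1 and 2, and the other shared distal regions were D2, with 4.35 and 4.90, and D6, with 4.21 and 3.12.

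Slc2a3 encodes GLUT3, a glucose importer of high affinity. It had 2 promoter regions far apart, P1 at the 5′-most coding start, chr6:122801640, and P2 with its summit 59.1 kb further along the gene, at a second set of coding starts. P1, at chr6:122800961-122802309, had signal values of 8.86 and 9.67 in replicates 1 and 2 and −log10 q of 161 and 142. P2, at chr6:122741912-122743506, had signal values of 6.71 and 6.38 and −log10 q of 45.9 and 31.6. The upstream promoter region was the stronger in each library, and the 2 ranges did not overlap. Between them lay 3 intronic regions, of which D4 (chr6:122764152-122765291) had signal values of 12.1 in replicate 1 and 11.3 in replicate 2, and D5 (chr6:122758412-122759191) had 10.7 and 10.5. Both exceeded either promoter region in both libraries. Upstream of the gene, D1 at chr6:122810189-122812004 had signal values of 9.40 and 9.03 and −log10 q of 518 and 366, the highest −log10 q at any of the 10 loci in each library. The other distal regions were D3, with 6.79 and 7.43, D7, with 8.44 and 6.79, D2, with 5.55 and 4.21, and the weakest, D6, with 3.07 and 2.74.

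Hexokinases phosphorylate glucose and so trap it in the cell. Hk1, the widely expressed form, had its open promoter inside the annotated gene. GENCODE gives 10 coding starts for Hk1, and 2 of them had a region. P1 at chr10:62338912-62341058 had signal values of 11.5 and 11.6 in replicates 1 and 2 and −log10 q of 423 and 339.9. P2 at chr10:62326733-62328112 had signal values of 6.78 and 6.61 and −log10 q of 47.2 and 35.8. P1 was the stronger in each library, and no region of either library had its summit within 1000 bp of the 5′-most starts, at 62379908, 62379852 and 62375100. The summit of P1 was 39.6 kb inside the gene's 5′ end. The strongest distal region was D8, at chr10:62260866-62261799 downstream of Hk1 in an exon of Tacr2, with signal values of 14.8 and 12.7 and −log10 q of 195 and 117. It stood above P1 in both libraries. Of the remaining shared distal regions, all in introns, D1 had 5.46 and 5.14, D6 had 6.40 and 4.65, and D7 had 5.54 and 5.69. D4 and D5 lie apart in the gene yet carry identical deposited values, with signal values of 3.81 in replicate 1 and 5.52 in replicate 2 for each, and with Pfkp D7 they had the lowest ratios of replicate 1 to replicate 2 at these loci.

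Hk2 encodes the hexokinase that is raised in activated T cells and many tumours. Its promoter region P1, at chr6:82773003-82775082 with the summit 80 bp upstream of the 5′-most start, had signal values of 7.98 and 8.42 in replicates 1 and 2 and −log10 q of 267 and 212. Its strongest distal region, D10 at chr6:82713939-82714817 downstream of the gene, had signal values of 12.5 and 13.2 and −log10 q of 74.0 and 62.1. D10 was above the promoter in signal value and below it in −log10 q, in both libraries. In the gene body, D3 (chr6:82752987-82753939) had signal values of 10.6 and 10.1, and D6 (chr6:82740118-82740852) had 9.86 and 9.46. D5 had 6.80 and 6.47, and D2 had 4.45 and 4.05. Hk2 was also the locus with the most regions of a single library, 5, all of them in replicate 1.

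**Figure D1:**
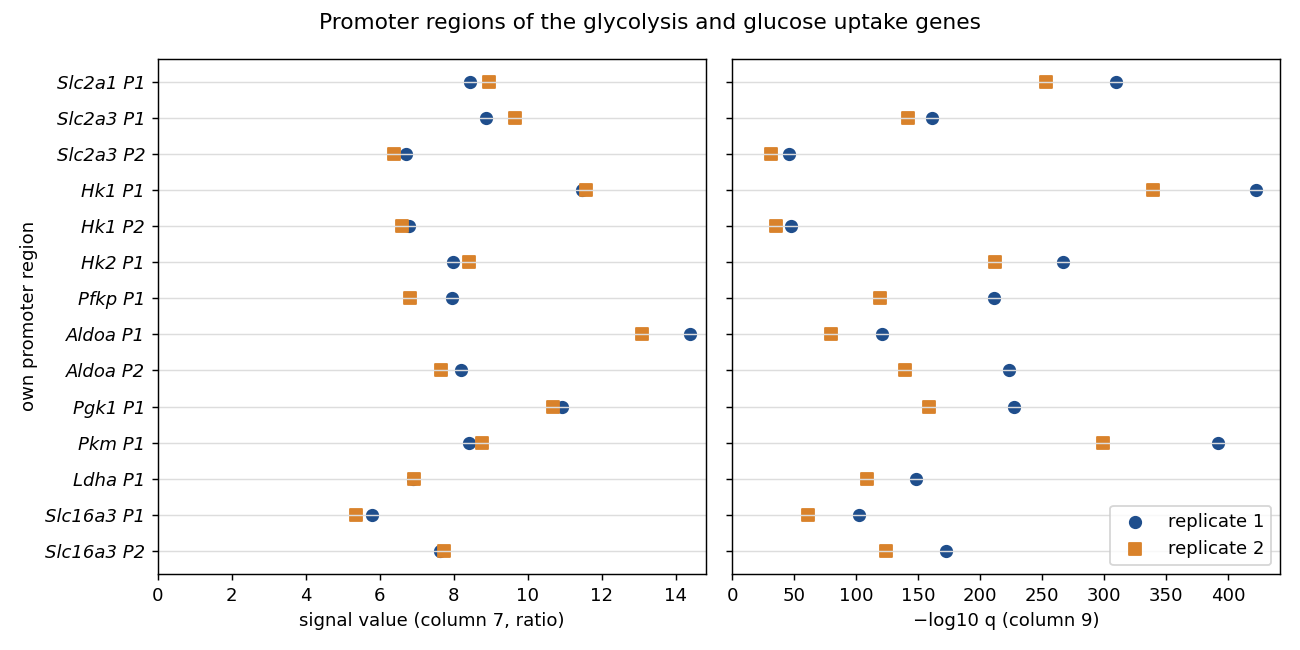
Signal value (left, column 7 of the deposited files, a ratio) and −log10 q (right, column 9) of the 14 own promoter regions of the 10 genes, with 1 point per library (circles replicate 1, squares replicate 2). Aldoa P1 had the highest signal values, 14.4 and 13.1, and Hk1 P1 the highest −log10 q, 423 and 339.9; −log10 q was higher in replicate 1 at every region.

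Pfkp encodes the platelet form of phosphofructokinase, which catalyses the committed step. Its promoter, P1 at chr13:6646846-6649396, was called as 1 peak in replicate 1 and as 2 peaks in replicate 2, with signal values of 7.94 and 6.82 and −log10 q of 212 and 119. The gene body held 6 shared distal regions, the most of the 10 genes. D6 (chr13:6618208-6619385) had signal values of 10.8 and 10.7 in replicates 1 and 2, D3 (chr13:6633225-6634094) had 10.6 and 9.99, and D9 (chr13:6595292-6596134, in an exon) had 10.2 and 8.92. These 3 exceeded the promoter in both libraries. D5 had 7.01 and 6.75, D4 had 6.50 and 6.73, D10, downstream in an intron of Pitrm1, had 5.53 and 7.0, and D7 had 3.0 and 4.33.

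Aldoa encodes aldolase A, which splits fructose bisphosphate. The annotation holds 2 protein-coding gene models with this name, which were treated as 1 locus. P1, at chr7:126808668-126809624 beside the start of the longer model and within an intron of Fam57b, had signal values of 14.4 and 13.1 in replicates 1 and 2 and −log10 q of 121 and 79.5. P2, at chr7:126798512-126800107, had its summit 1 bp from the RefSeq start of the sequence shown above, with signal values of 8.18 and 7.66 and −log10 q of 223 and 139.6. P1 was thus higher in signal value and P2 in −log10 q, in both libraries. Only 2 shared distal regions were found, D1 in an intron of Fam57b (chr7:126821818-126823061), with signal values of 9.78 and 9.70, and D2 in an exon of Ypel3, with 5.93 and 6.04. Neither lay in the gene body, and both were below P1.

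Pgk1 encodes phosphoglycerate kinase, the first ATP-forming step, and lies on the X chromosome. Its promoter P1, at chrX:106186393-106188380, had signal values of 10.9 and 10.7 in replicates 1 and 2 and −log10 q of 228 and 159. The upstream region D1, at chrX:106171023-106172260, had 13.8 and 11.9 and −log10 q of 87.2 and 56.9. D1 was above the promoter in both libraries. The other shared distal region, D5 just downstream of the gene, had 3.61 and 3.65, and the gene body itself held no region found in both libraries.

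Pkm encodes pyruvate kinase of muscle type, the source of the M1 and M2 isoforms. Its promoter P1, at chr9:59655855-59657421, had signal values of 8.42 and 8.75 in replicates 1 and 2 and −log10 q of 392 and 299. Its strongest distal region was D5, at chr9:59687351-59687852 in an intron of Gramd2, with 10.8 and 11.2 and −log10 q of 61.1 and 50.7. As at Hk2, the distal region was above the promoter in signal value and below it in −log10 q. The body of Pkm held weaker regions: D1 had 4.77 and 4.73, D2 had 2.31 and 2.81, and D4 had 2.44 and 2.78.

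Ldha encodes the lactate dehydrogenase subunit that turns pyruvate into lactate. Its promoter P1 was wide, at chr7:46844991-46847596, and had signal values of 6.90 and 6.91 in replicates 1 and 2 and −log10 q of 148 and 109. By signal value it was the weakest when each of the 10 genes is taken by its strongest promoter region, and the libraries differed by less there than at any other own promoter. The 5′-most coding start, at 46841475, had no region, and 7 of 12 coding starts had one with its summit within 1000 bp. Upstream of the gene, D4 (chr7:46838149-46839631) had signal values of 8.88 and 9.73, and D3 (chr7:46833328-46834043) had 9.96 and 8.55. Both were above the promoter in each library. D2 had 6.37 and 6.73, D1 had 3.01 and 3.12, and D5, downstream, had 4.16 and 5.26. With 4 of its 5 distal regions upstream and none in the gene body, Ldha had the most upstream regions and the highest density, 9.23 per 100 kb of locus.

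Slc16a3 encodes MCT4, a monocarboxylate transporter that exports lactate. It had 2 promoter regions close together. P1 at chr11:120948440-120949670 had signal values of 5.79 and 5.36 in replicates 1 and 2 and −log10 q of 102 and 61.6. P2 at chr11:120950233-120951430 had 7.62 and 7.73 and −log10 q of 173 and 124. The downstream of these was the stronger in each library. Among its distal regions D2, at chr11:120940899-120941330, had signal values of 7.68 and 6.97, so that it was above P2 in replicate 1 and below it in replicate 2. D1 had 5.31 and 5.36, and D3, in an exon of Csnk1d, had 2.95 and 2.48.

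**Figure D2:**
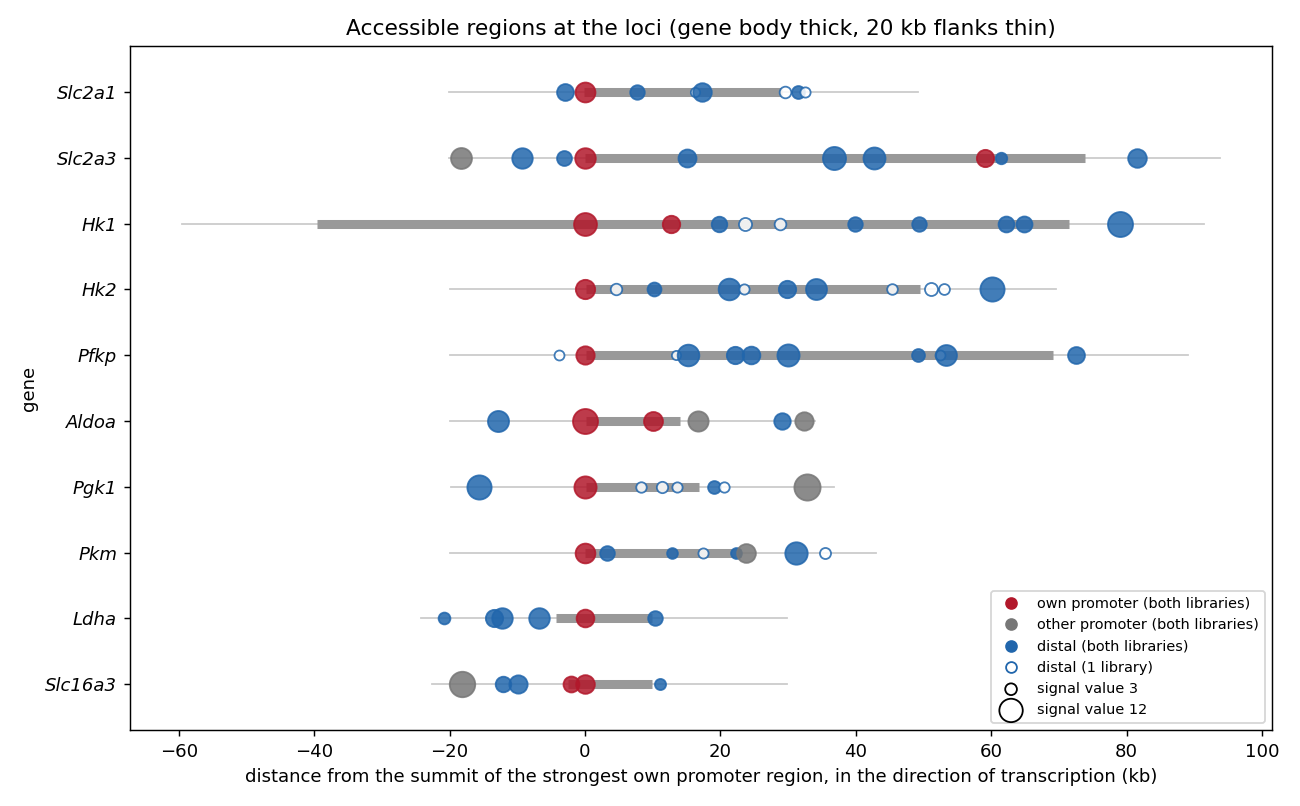
Merged regions at the 10 loci by distance of their summit from the summit of the gene's strongest own promoter region, in kb in the direction of transcription; thick lines are gene bodies, thin lines the 20 kb flanks, and the area of a circle grows with its signal value (mean of the libraries that have it). The 45 filled distal regions were in both libraries and the 19 open ones in 1 library; Hk1 shows the gene body running 39.6 kb upstream of its open promoter.

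Set side by side, the strongest promoters of the 10 genes had a median signal value of 8.64, with a range of 6.91 to 13.7 over means of the 2 libraries. Over the 13724 genes with a promoter region the median was 11.2. The value of Aldoa exceeded that of 74.1% of these genes and that of Hk1 52.6%, and for the other 8 the share was between 17.3% (Ldha) and 46.5% (Pgk1). The Aldoa value is that of P1, while P2, at the RefSeq start of the sequence shown above, had a mean of 7.92. For the T-cell genes checked above the same share ranged from 0.38% (Cd2) to 47.6% (Lat). In order, Aldoa (13.7 ± 0.90, SD, n = 2 libraries here and below), Hk1 (11.5 ± 0.09) and Pgk1 (10.8 ± 0.18) led, and Ldha (6.91 ± 0.01) and Pfkp (7.38 ± 0.79) came last. Between them Slc2a3 (9.26 ± 0.57), Slc2a1 (8.70 ± 0.36), Pkm (8.59 ± 0.23), Hk2 (8.20 ± 0.31) and Slc16a3 (7.68 ± 0.08) followed each other. In that order the values of Slc2a3 and Slc2a1, of Slc2a1 and Pkm, of Slc16a3 and Pfkp, and of Pfkp and Ldha overlapped between libraries, while Hk2 lay just below Pkm without overlap. That order holds for signal value alone. In −log10 q the same regions ran from Aldoa, with 121 and 79.5 in replicates 1 and 2, up to Hk1, with 423 and 339.9. In width the 14 own promoter regions had a median of 1581 bp, against 1274 bp for all 14013 shared promoter regions. GC content was close to that of all promoters, with a median of 64.5% against 64.3% in the 300 bp around the summit.

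Of the 62 coding starts of the 10 genes, 41 had a region in both libraries, beside 56.7% of all 54327 coding starts. Slc2a1, Slc2a3, Pgk1 and Slc16a3 had a region at each of their starts. Hk1 had a region at 2 of 10, Hk2 at 1 of 3, Pfkp at 2 of 4, Aldoa and Pkm at 7 of 9 each, and Ldha at 7 of 12. Neighbouring starts share a region, so these counts are not independent. They rest on a summit within 1000 bp of the start, so some starts counted as without a region lie inside a wide one. The Ldha starts at 46847082, 46847131, 46847505 and 46847596 lie inside its P1, and the Hk2 start at 82773363 lies inside its P1.

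Distal regions were the larger class. Of 64 merged distal regions 45 were in both libraries, 70.3% (exact binomial 95% interval 57.6 to 81.1, covering counting error only), beside a background of 75.6%. Each of the 10 loci held at least 1 of them, as did 71.7% of protein-coding genes. Slc2a3 and Pfkp had 7 each, Hk1 had 6, Hk2 and Ldha 5, Slc2a1 and Pkm 4, Slc16a3 3, and Aldoa and Pgk1 2. Taken from replicate 1 alone the count was 10 at Hk2 and 4 at Pgk1, and from replicate 2 alone it was 11 at Pfkp and 4 at Pgk1. The Pfkp count includes a peak of replicate 2 that merging places in the promoter region P1. Restricting each library to its 50000 strongest peaks left 29 of the 45. The median was 4.5, against 2 for all protein-coding genes and 3 for those with a promoter region, and 8 of 10 were above the median of all genes, beside 40.7% of genes. These loci had a median length of 66.1 kb against 57.4 kb for all genes. Per 100 kb of locus the median was 5.75 regions, against 2.57 for all genes and 3.84 for those with a promoter region. The 10 genes ranged from 3.53 (Pgk1) to 9.23 (Ldha). No test was made of these differences, since the genes were chosen with results of these data known.

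Of the 45 shared distal regions 24 lay in the gene body, 11 upstream and 10 downstream. By annotation 26 were intronic, 23 of them in the gene itself, 4 were exonic and 15 intergenic. At 7 of the 10 genes the strongest distal region exceeded the strongest own promoter region in signal value, beside a background of 39.5% of genes with a promoter region. These were Slc2a3, Hk1, Hk2, Pfkp, Pgk1, Pkm and Ldha, and the distal region was the higher at these 7 in each library taken alone. In replicate 1 alone Slc16a3 joined them, its D2 being above P2 there, and Slc2a1 and Aldoa had the promoter higher in both libraries. At Aldoa this held for P1, whereas D1 was above P2 in both libraries. By −log10 q the order at the 7 genes was reversed. In both libraries the distal region strongest by mean signal value lay below the strongest promoter region at each. Other distal regions of these genes exceeded it in −log10 q, namely Slc2a3 D1 and Pfkp D3 in both libraries and Ldha D3 in replicate 1. A region within a locus is not thereby shown to act on that gene, and Hk1 D8, Pfkp D10, Pkm D5, Slc16a3 D3 and both distal regions of Aldoa lie in other genes.

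**Figure D3:**
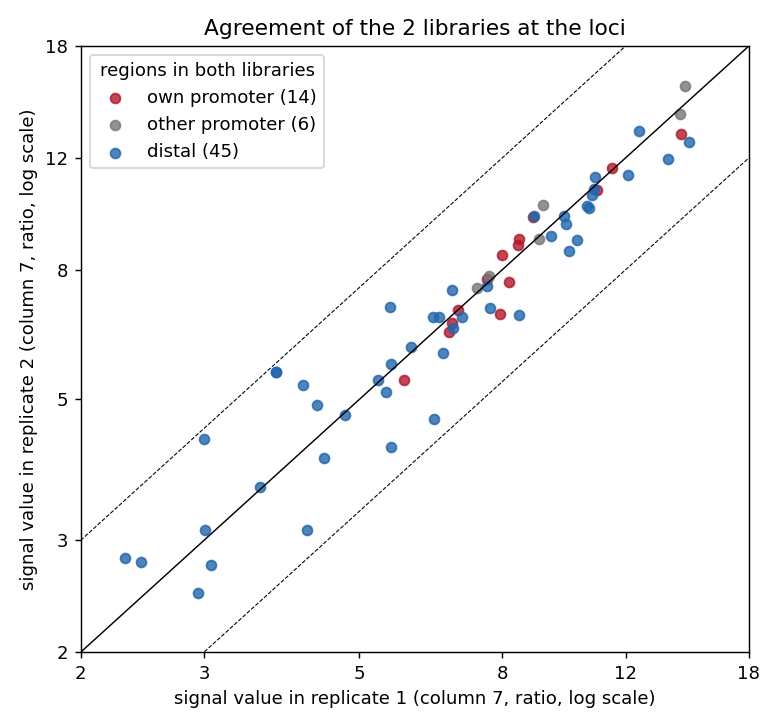
Signal value (column 7, a ratio, log scale) in replicate 1 against replicate 2 for the 65 regions found in both libraries, coloured by class, with the line of equality and dashed lines at 1.5-fold. All 65 lie within the dashed lines, and distal regions of low signal spread the most.

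The libraries were compared at these loci, since with 1 group this is the only contrast the design holds. Of the 84 merged regions 65 were in both libraries, 77.4% (exact binomial 95% interval 67.0 to 85.8), beside 79.0% of all regions. All 14 own promoters and all 6 neighbouring promoters were in both, beside 94.8% of all 14774 merged promoter regions. Over the 62 regions matched 1 to 1, the signal value in replicate 1 over replicate 2 had a median ratio of 1.01 and a range of 0.690 to 1.38. None of the 62 differed by more than 1.5-fold, beside 2.49% of all such regions. The SD of the log2 ratio was 0.18 at these loci and 0.23 over all matched regions, and it was 0.08 at the own promoters and 0.22 at the distal regions. Replicate 1 had the higher −log10 q in 56 of the 62, with a median ratio of 1.37, while the median over all matched regions was 1.39.

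The 19 regions of a single library were all distal and weak. The 11 found in replicate 1 alone had signal values of 1.90 to 3.72 and −log10 q of 1.88 to 32.0, and the 8 found in replicate 2 alone had 1.85 to 3.72 and 1.56 to 5.94. For scale, the median signal value of the shared regions at these loci was 7.62 in replicate 1 and 7.0 in replicate 2. The 5 at Hk2 (D1, D4, D7, D8 and D9) were in replicate 1 alone, and Hk2 D1, in an intron at chr6:82769772-82770030, had the highest −log10 q of the 19, 32.0 at a signal value of 2.90. The 3 at Pfkp (D1, D2 and D8) were in replicate 2 alone. Pgk1 had 2 from each library, Slc2a1 had 2 from replicate 1 and 1 from replicate 2, and Hk1 and Pkm had 1 from each. Slc2a3, Aldoa, Ldha and Slc16a3 had none. As depth is unknown, absence from a library's list and a signal under the caller's threshold cannot be told apart.

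Short consensus sequences were then counted in the 300 bp around each summit, on both strands. At the 14 own promoters the HIF-1 core ACGTG was found in 8, 57.1%, against 24.9% of all 14013 shared promoter regions. These were Slc2a1 P1, Hk1 P1, Hk2 P1, Aldoa P2, Pgk1 P1, Ldha P1 and both regions of Slc16a3, so that 7 of the 10 genes had it. Genes with several own promoter regions had several windows, and no share per gene was computed over all genes. At these 7 genes a window overlaps the RefSeq sequence shown above, so this count and that of the RefSeq entries are not separate. GGGCGG was in 13 of 14, all but Slc2a3 P2, against 64.8% of all shared promoter regions. TGACGT, the core of the CREB and ATF site, was in 3 (Hk2 P1, Ldha P1 and Slc16a3 P1), 21.4% against 10.4%. The full E-box CACGTG, which contains ACGTG, was in Ldha P1 alone, 7.14% against 9.05%. In these 300 bp no own promoter held CCGGAAG for ETS factors, which 16.1% of all shared promoters held. Nor did any hold TGTGGTT for RUNX factors (3.91% of all), an AP-1 site (5.18%) or a match to the NRF1 (3.99%) or CTCF consensus (2.10%). All of these shares are low for so few regions, that of CCGGAAG included, so absence from the 300 bp of 14 promoters says little. Outside that window, an AP-1 site, TGAGTCA, stands in lower case near the 5′ end of the Aldoa sequence shown above.

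Distal regions had other letters. The AP-1 site, TGACTCA or TGAGTCA, was in 18 of 45, 40%, against 27.0% of all 52834 shared distal regions. Of the 10 genes 8 had at least 1 such region. The exceptions, Aldoa and Pgk1, had the fewest shared distal regions, 2 each. More distal regions give more chances of a match, and no share per gene was computed over all genes. At the 10 genes, distal regions with an AP-1 site had a median signal value of 8.42, against 5.98 without; over all shared distal regions the medians were 7.43 and 6.29. In 8 of the 18 regions the site was within 50 bp of the summit, 44.4%, against 72.8% of all shared distal regions with a site. The E-box was in 7 of 45, 15.6%, against 4.74%, and ACGTG in 10, 22.2%, against 15.8%. In 5 of those 7 regions (Slc2a3 D2, Hk1 D1, Hk1 D4, Pfkp D3 and Pkm D1) an AP-1 site was in the same window, 11.1% of the 45 against 1.19% of all, a pairing looked at after the matches were seen. RUNX matches (15.6% against 13.2%) and CTCF matches (8.89% against 8.86%) were at the share of all distal regions. CCGGAAG and NRF1 matches were absent, and these were in 2.31% and 0.197% of all shared distal regions.

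Shown here are the 150 bases around the summit of 6 of the strongest distal regions with an AP-1 site, from GRCm38, plus strand, at chr6:122764702-122764851, chr6:122758862-122759011, chr6:82714288-82714437, chr13:6633638-6633787, chr13:6618830-6618979 and chr9:59687458-59687607. Capitals mark the AP-1 site and any E-box.
Slc2a3 D4: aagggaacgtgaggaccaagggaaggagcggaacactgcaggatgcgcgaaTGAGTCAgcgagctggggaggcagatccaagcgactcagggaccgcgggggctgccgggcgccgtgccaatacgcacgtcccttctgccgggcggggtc
Slc2a3 D5: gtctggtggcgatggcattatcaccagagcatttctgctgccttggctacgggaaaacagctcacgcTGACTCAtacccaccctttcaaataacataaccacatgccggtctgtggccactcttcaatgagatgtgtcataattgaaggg
Hk2 D10: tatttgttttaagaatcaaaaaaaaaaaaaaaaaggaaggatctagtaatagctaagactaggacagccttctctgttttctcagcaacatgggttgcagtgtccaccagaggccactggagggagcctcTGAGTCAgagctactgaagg
Pfkp D3: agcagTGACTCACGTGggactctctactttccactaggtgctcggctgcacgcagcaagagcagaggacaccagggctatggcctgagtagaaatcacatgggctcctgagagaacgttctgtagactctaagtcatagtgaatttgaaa
Pfkp D6: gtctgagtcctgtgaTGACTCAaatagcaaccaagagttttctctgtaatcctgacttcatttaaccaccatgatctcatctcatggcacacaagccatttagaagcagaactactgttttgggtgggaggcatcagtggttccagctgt
Pkm D5: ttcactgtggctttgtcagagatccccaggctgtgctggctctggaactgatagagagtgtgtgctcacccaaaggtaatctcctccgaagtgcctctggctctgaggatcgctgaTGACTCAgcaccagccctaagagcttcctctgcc
In Pfkp D3 the AP-1 site and the E-box share 2 bases, so that both are read in 1 run of capitals. That overlapping pair, in this order, was in 1 of the 45 regions and in 23 of all 52834 shared distal regions.

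**Figure D4:**
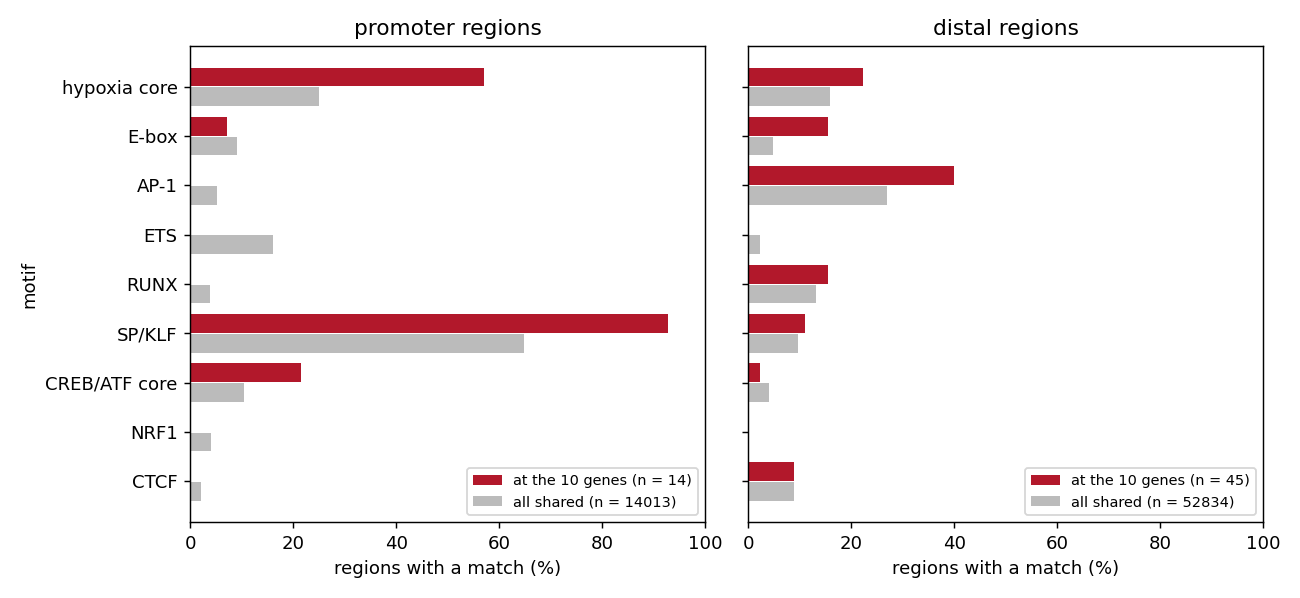
Percent of regions with a match in the 300 bp around the summit, at the 10 genes (red) and over all shared regions (grey), for 14 own promoters against 14013 promoter regions (left) and 45 against 52834 distal regions (right). In promoters the HIF-1 core (57.1% against 24.9%) and GGGCGG (92.9% against 64.8%) stand above the share over all regions. The ETS sequence had no match in promoters (0% against 16.1%), and absence from 14 promoters says little. In distal regions AP-1 stands above the share over all regions (40% against 27.0%).

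The wider pathway was read from 50 further genes. Of these 35 had a promoter region in both libraries, none in 1 library, and 15 in neither, so that their share was near the 62.8% of all protein-coding genes. Among other glucose transporters 5 of 8 had a promoter region, with Slc2a12 (13.7 and 14.8 in replicates 1 and 2) and Slc2a6 (13.0 and 13.6) the strongest, and Slc2a2, Slc2a5 and Slc2a10 without one. Slc2a2 encodes GLUT2 of liver and pancreatic beta cells, and Slc2a5 a fructose transporter. Hk3 and Hkdc1, which encode other hexokinases, had no promoter region in either library.

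For the middle steps 11 of 17 had a promoter region. The strongest were Eno4 (14.5 and 15.6) and Aldoc (14.3 and 11.8), the aldolase of brain. Among those without a region were Gapdhs and Pgk2, forms found in testis, Eno1b, Eno3, the muscle enolase, and Pklr, the pyruvate kinase of liver and red cells. For lactate 4 of 7 had a promoter region, led by Ldhb (15.8 and 15.0), the partner subunit of Ldha, and Bsg (11.6 and 11.2), the chaperone of MCT4, while Ldhc, Ldhal6b and Slc16a8 had none. Ldhb thus stood above Ldha (6.90 and 6.91) in each library. Of 15 genes that switch the flow or control it, 14 had a promoter region, with Tigar (18.8 and 19.5) and Pfkfb4 (14.5 and 14.2) the strongest and Fbp2, the muscle fructose bisphosphatase, without one.

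**Figure D5:**
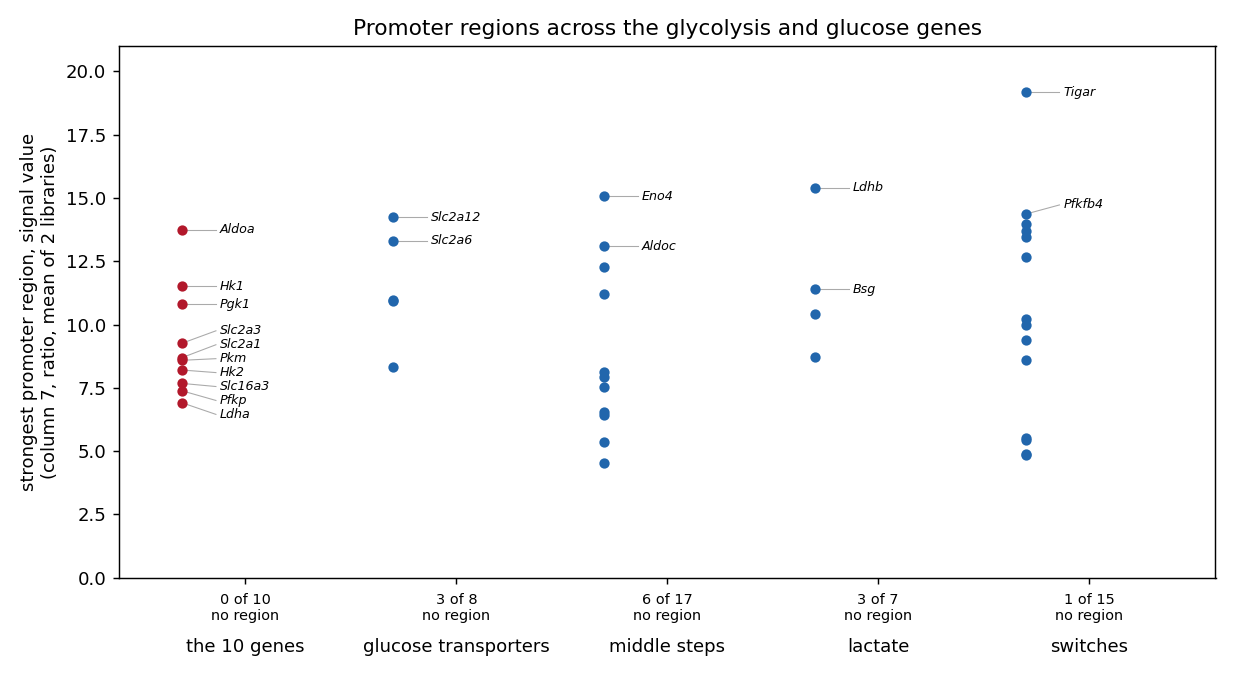
Signal value (column 7, a ratio, mean of the 2 libraries) of the strongest promoter region of each of the 10 genes (red) and of further pathway genes by group (blue, hexokinases not shown), with the highest values of each blue group named and the number of genes that had no region in both libraries below each group. The 10 genes lie between 6.91 and 13.7, and Tigar has the highest value among all genes shown, 19.2.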

How the data were processed

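The samples were 2 ATAC-seq libraries of mouse T cells. Peaks were deposited in narrowPeak format on mm10, called on each library alone per the labels and the deposited notes. The aligner, caller, versions and threshold are not given in the sources used here. The deposited signal value (column 7) is a ratio; its meaning, enrichment over the local background, was inferred from the values. The score (column 5), −log10 p (column 8), −log10 q (column 9) and summit offset of the authors were taken as they stand. Depth is unknown.

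On chromosomes 1 to 19, X and Y, peaks were merged where they overlapped by at least 1 bp, and a merged region took its strongest summit. Genes and 54327 coding starts were those of GENCODE mouse release 21, on the coordinates of mm10, and distal sequence came from GRCm38. The rule named every one of the 10 genes and their promoter regions, their strongest distal region, regions of 1 library, and of each group of 50 other pathway genes the 2 strongest and those with no region. A few genes that the rule names are not reported here. The genes and lists were chosen with earlier results of these data known. Nothing was tested between groups. Alternatives were other promoter distances, starts, flanks, overlaps and peak thresholds, and each library alone. The code (Python 3.11.15, numpy 2.4.6, scipy 1.17.1, matplotlib 3.10.9) was tested on simulated data.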

Additional observations from a re-analysis of the deposited data

How the results depend on the processing

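All 10 genes kept a promoter region in both libraries with promoter distances of 500 and 2000 bp, with −log10 q of at least 5, with the 50000 strongest peaks of each library and with starts of all transcript types. Asking for an overlap of 50% of both regions left 9 genes, without Pfkp, and taking the 5′ end of the gene alone left 8, without Hk1 and Ldha. The other counts follow the window by construction: with no flank there were 33 shared regions and 24 shared distal ones, and with flanks of 50 kb there were 100 and 69. With the 50000 strongest peaks of each library 29 shared distal regions were left and 89.1% of merged regions were in both libraries; with −log10 q of at least 5 the share was 89.9%. Using 1 library at a time gave 74 to 78 regions, of which 54 to 58 were distal, 10 genes with a promoter region, a median promoter signal value of 8.43 to 8.85, and 35 of the 50 other genes. In all, 41 of 48 recomputed summary values stayed close to those reported (counts within 1.5 times, other values within the spread of the libraries or their interval), as did 78 of 100 distal counts of single genes. A promoter defined by any overlap with 1000 bp around a start, an alternative chosen after seeing the data, gave 10 genes, 8.64 and 37 of the 50. No paired analysis was possible because there was 1 group only.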
